A study of Mus musculus with 4 samples.

Results

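Spots of high and of low hypoxia score were compared within sections of primary 4T1 mammary tumours. The score of a spot was the share of its unique molecular identifiers (UMIs, each counting 1 captured probe pair) that fell on Car9, Ndrg1, Slc2a1, Pdk1, Egln3, Adm and Vegfa. Among spots with over 200 genes and 1000 or more UMIs, the 15% with the highest score in a section formed the high-score class and the 50% with the lowest score the low-score class. The high-score class held 241 spots of Mouse_627 and 348 of Mouse_628, 589 of the 3920 primary tumour spots kept and of 8382 spots kept in the whole series, and the low-score class held 802 and 1158 spots. Spots were thus chosen by the measured UMIs of these 7 genes, so their own levels are given as a description, and oxygen itself was not measured in these sections.

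Both animals were BALB/c mice that received 100000 4T1 cells, a mammary carcinoma line of this strain, in PBS in the mammary fat pad at 8 weeks of age. Primary tumours were taken after 28 days, and no untreated tumour or second time point entered the comparison. A single formalin-fixed section of each tumour was profiled with the Visium probe assay, in which a spot captures RNA of more than 1 cell, and of more than 1 cell type where they mix. The comparison therefore has n = 2 mice with 1 section each, the high and low classes of a mouse come from the same section, and spots are not replicates. The sections share 1392 barcodes, which name positions on the array and not cells. A lower level in a class can reflect fewer cells of a type or less RNA per cell, which cannot be told apart.

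Cells short of oxygen stop hydroxylating the HIF alpha subunits, which then escape degradation, pair with ARNT and bind hypoxia response elements with the core letters ACGTG. The genes that respond bring glucose into the cell and through glycolysis, turn pyruvate away from the mitochondria, export acid, call for new vessels and feed back on the pathway itself. In solid tumours such cells lie away from perfused vessels and often beside necrosis. Of the genes of the score, Slc2a1 encodes the glucose transporter GLUT1, Pdk1 a kinase that shuts off pyruvate dehydrogenase, Car9 a carbonic anhydrase at the cell surface, Egln3 a HIF prolyl hydroxylase, Adm the vasodilator peptide adrenomedullin, Vegfa the main growth factor of endothelial cells, and Ndrg1 a stress-induced protein widely used as a hypoxia marker.

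The core letters could be read in the promoters of some of these genes. RefSeq promoter windows of the GRCm38.p6 build, here the 250 bases before the annotated start, were at hand for 6 of the 7 score genes, and 4 of them held ACGTG or its reverse complement CACGT in at least 1 window. Such a match was held by 18.5% of all 27025 genes with a window and by 16.6% of all 32851 windows. The windows shown are those of 2 score genes with a match and of the 3 hypoxia response genes outside the score that rose (below) and held a match, each read 5′ to 3′ on the gene's strand with the matching letters in capitals.
Car9 (chr4:43506776-43507025, plus strand): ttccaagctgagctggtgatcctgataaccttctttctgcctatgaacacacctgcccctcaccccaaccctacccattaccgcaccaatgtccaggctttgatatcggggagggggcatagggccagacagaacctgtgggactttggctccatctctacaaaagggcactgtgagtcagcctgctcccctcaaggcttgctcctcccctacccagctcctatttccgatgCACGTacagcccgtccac
Slc2a1 (chr4:119108495-119108744, plus strand): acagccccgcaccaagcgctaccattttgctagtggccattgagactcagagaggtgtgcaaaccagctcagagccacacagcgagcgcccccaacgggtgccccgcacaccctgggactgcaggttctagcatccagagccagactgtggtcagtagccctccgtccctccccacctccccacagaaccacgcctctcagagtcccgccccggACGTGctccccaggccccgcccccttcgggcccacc
Ankrd37 (chr8:45999851-46000100, minus strand): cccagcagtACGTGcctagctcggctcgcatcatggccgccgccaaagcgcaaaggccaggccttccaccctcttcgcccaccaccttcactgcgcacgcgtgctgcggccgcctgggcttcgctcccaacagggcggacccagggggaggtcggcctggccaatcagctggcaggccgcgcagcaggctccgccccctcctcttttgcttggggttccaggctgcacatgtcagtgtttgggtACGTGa
Ddit4 (chr10:59951771-59952020, minus strand): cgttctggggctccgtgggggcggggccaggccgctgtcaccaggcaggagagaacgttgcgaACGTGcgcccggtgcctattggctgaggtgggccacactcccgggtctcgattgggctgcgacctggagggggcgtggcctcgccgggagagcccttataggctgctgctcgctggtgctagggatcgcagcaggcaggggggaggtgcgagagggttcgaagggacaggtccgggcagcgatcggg
Ero1l (chr14:45318573-45318822, minus strand): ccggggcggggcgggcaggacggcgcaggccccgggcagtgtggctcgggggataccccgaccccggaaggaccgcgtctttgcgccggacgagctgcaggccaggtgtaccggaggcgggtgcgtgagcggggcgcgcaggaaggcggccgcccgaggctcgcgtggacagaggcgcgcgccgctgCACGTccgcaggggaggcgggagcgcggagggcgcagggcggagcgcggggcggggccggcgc

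The match lay 18 bases before the start in Car9 and 36 in Slc2a1, 241 and 6 bases in Ankrd37, 187 in Ddit4 and 63 in Ero1l, counted to its first letter. The windows of Gbe1 and Eno2, which also rose, did not hold these letters. Over the 45 hypoxia response genes outside the score that were tested, 36 had a window and 19 of these, or 52.8%, held a match.

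The sections differed in depth, and so did the classes, in opposite directions. The kept spots had a median of 6489 UMIs in Mouse_627 and 1848 in Mouse_628. High-score spots had a median of 4981 UMIs and 2850 genes against 7186 UMIs and 3673 genes in low-score spots of Mouse_627. In Mouse_628 the high-score spots were the deeper ones, with 2568 UMIs and 1840 genes against 1595 UMIs and 1327 genes. The summed classes held 1391965 and 7390281 UMIs in Mouse_627 and 2634677 and 3717316 in Mouse_628. Olfactory and vomeronasal receptor genes, which a mammary tumour should hardly express, took 0.112% of UMIs in high-score and 0.0561% in low-score spots of Mouse_627 and 0.472% and 1.45% in Mouse_628, so that this background moved with depth and its part in the results was not tested. A further 886 spots of Mouse_627 and 56 of Mouse_628 had over 200 genes and under 1000 UMIs and were left out, with a summed score of 33.1 and 24.8 per 10000 UMIs against 35.2 and 39.4 in the spots kept. Because of the depth, the comparisons below are also given for depth-matched classes, taken as the same 15% and 50% within each of 5 equal-sized groups of a section's spots ordered by UMIs. Their medians were 6413 and 6511 UMIs in Mouse_627 and 1862 and 1806 in Mouse_628. The match was looser in the deepest group, with medians of 16070 and 17760 UMIs in Mouse_627 and 16990 and 11900 in Mouse_628. Receptor genes took 0.0821% and 0.0625% of UMIs in the high and low depth-matched classes of Mouse_627 and 0.705% and 1.01% in Mouse_628.

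**Figure D1:**
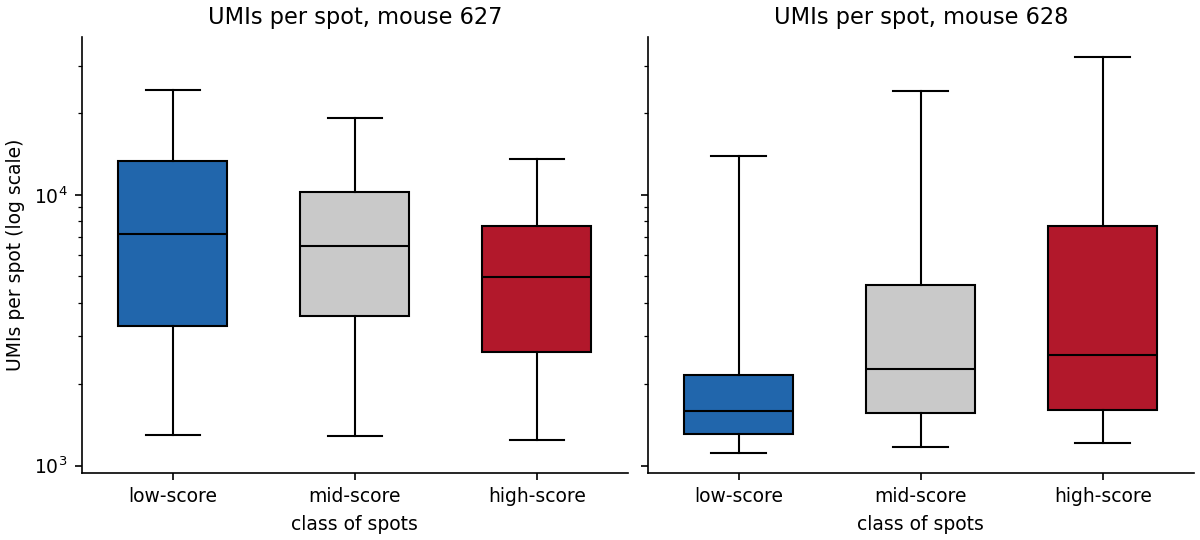
UMIs per spot (log scale) in the low-score, mid-score and high-score spots of each section. Boxes span the quartiles with the median as a line and whiskers reach the 5th and 95th percentiles. The median fell from 7186 in low-score to 4981 in high-score spots of Mouse_627 and rose from 1595 to 2568 in Mouse_628.

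The score ran on without a gap across both limits. The lowest high-score spot of Mouse_627 had 50.1 and the highest spot below it 49.9 score UMIs per 10000 UMIs, and in Mouse_628 both stood at 49.3. The highest low-score spot had 36.1 in Mouse_627 and 32.57 in Mouse_628, and the next spot above it 36.2 and 32.59. Summed over a class, the score was 57.8 per 10000 UMIs in high-score, 41.9 in mid-score and 27.1 in low-score spots of Mouse_627. In Mouse_628 it was 59.6, 40.8 and 23.2. A spot of the low-score class of Mouse_628 held a median of 3 score UMIs, so its place in the order rested on very few counts.

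Each of the 7 genes was higher in the high-score class of both sections, which the rule favours because their summed UMIs made the score. Slc2a1 stood at 1685 CPM (UMIs of the gene scaled to 1000000 UMIs of the summed class, without the TMM scaling that fold changes carry) in high-score and 680 CPM in low-score spots of Mouse_627 and at 1861 and 748 CPM in Mouse_628. Ndrg1 stood at 978 and 383 CPM in Mouse_627 and at 1074 and 323 CPM in Mouse_628, ratios of 2.56 and 3.33, the widest in each section. The gaps were narrower in UMIs that had not chosen the classes. When classes were made from a randomly drawn 50% of each spot's UMIs and levels were read from the remaining UMIs, the ratio of Ndrg1 was 1.88 and 2.48, that of Slc2a1 1.78 and 1.93, and the smallest, that of Pdk1, 1.28 and 1.42. The summed score in the UMIs not used for the choice was 48.2 per 10000 in high-score and 30.3 in low-score spots of Mouse_627 and 55.2 and 29.1 in Mouse_628. Over the 1604 spots of Mouse_627 the Spearman correlation of a gene's share with the share of the other 6 ranged from 0.0356 for Pdk1 to 0.295 for Slc2a1, and over the 2316 spots of Mouse_628 from 0.137 for Egln3 to 0.223 for Adm. These are descriptions of sparse counts that share the depth of the spot.

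High-score spots lay next to each other more often than their share of the section. Of the neighbours of high-score spots on the hexagonal grid, 34.2% were high-score in Mouse_627 and 29.4% in Mouse_628, against 15% of all spots kept. Of the neighbours of low-score spots, 7.38% and 9.19% were high-score. The rule did not use position, but neighbouring spots share tissue and depth, and no test was made. High-score spots with no high-score neighbour made up 20.3% of the class in Mouse_627 and 25.3% in Mouse_628. The median distance to the nearest position off the tissue was 5 steps for high-score and 6 steps for low-score spots in both sections. The share of spots within 2 steps of it went opposite ways, at 16.6% of high-score and 21.2% of low-score spots in Mouse_627 and 26.1% and 20.2% in Mouse_628.

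**Figure D2:**
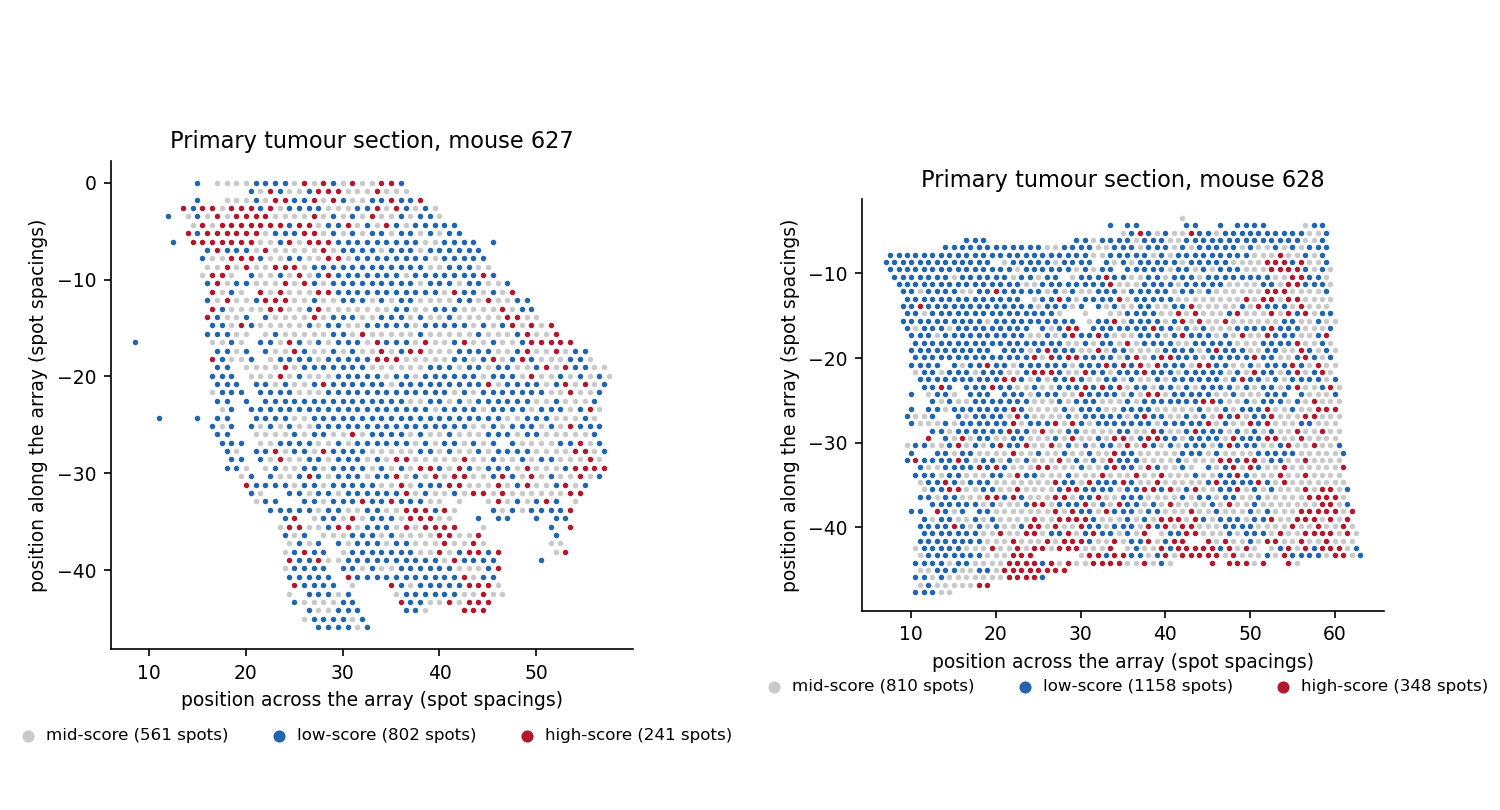
Position of the kept spots on the arrays of both primary tumour sections, in spot spacings, coloured by class. High-score spots (241 in Mouse_627, 348 in Mouse_628) form groups as well as single spots, and 34.2% and 29.4% of their neighbours are high-score.

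Genes were compared in the summed counts of both classes with the mouse as a block, by the quasi-likelihood test of edgeR, with p-values adjusted over 14742 genes after Benjamini and Hochberg. At an adjusted p under 0.05, 31 genes (0.210%) were higher in high-score spots, the 7 score genes and 24 others, and 69 (0.468%) were lower. All 31 were higher in both sections, which the rule favours for the 7 score genes. Of the 69, 38 were lower in both sections, 31 were higher in high-score spots of Mouse_627 and lower in those of Mouse_628, and 13 of the 69 were olfactory or vomeronasal receptor genes. At any size, 17.6% of the genes tested were higher and 33.1% lower in both sections, and the median log2 fold change of all genes was -0.13. In the depth-matched classes 17066 genes were tested, 211 (1.24%) were higher and 196 (1.15%) lower, with 19.7% and 37.7% higher and lower in both sections at any size. Of the 31 genes called higher, 29 were again called higher there, but both counts hold the 7 score genes, which chose these classes too. Of the 69 called lower, 20 were again called lower, with 1 receptor gene left among the 196. With the block, 338 genes were higher and 700 lower at an unadjusted p under 0.05. Without the block no gene was called in either direction, with 174 at an unadjusted p under 0.05. The counts of each list below stand against the shares of all genes given here.

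Hypoxia response genes that the score did not use were higher in high-score spots. Of 45 tested members of a list of such genes, 6 rose and none fell by edgeR, against 0.210% and 0.468% of all genes. At an unadjusted p under 0.05, 28 were higher and 1 lower, against 338 and 700 of all 14742 genes, and DESeq2 called 3 higher. In both sections 34 of the 45 were higher, against 17.6% of all genes. The median log2 fold change of the 45 was 0.55 (0.45 in Mouse_627 and 0.63 in Mouse_628) against -0.13 over all genes. In the depth-matched classes 28 of the 45 rose and 1 fell, against 1.24% and 1.15% of all genes, with a median of 0.47 against -0.10. The list was put together with earlier results of these data known, so its count describes it and is not independent evidence.

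Bhlhe40, a transcriptional repressor that HIF induces and that also acts in the circadian clock, was 1 of the 6. It stood at 856 CPM in high-score and 515 CPM in low-score spots of Mouse_627 and at 1235 and 556 CPM in Mouse_628, with a log2 fold change of 1.01 ± 0.25 (SE, edgeR adjusted p = 0.0162). Both high-score values exceeded both low-score values. Ero1l, the oxidase that passes electrons from disulfide formation in the endoplasmic reticulum to oxygen, stood at 374 and 205 CPM in Mouse_627 and at 414 and 214 CPM in Mouse_628 (0.98 ± 0.22, edgeR adjusted p = 0.00366). Ddit4 (REDD1), which restrains mTORC1, stood at 199.7 and 139.8 CPM in Mouse_627 and at 294 and 128 CPM in Mouse_628 (0.93 ± 0.21, edgeR adjusted p = 0.00366). For these genes the gap was wider in Mouse_628, most of all for Ddit4, with 0.52 in Mouse_627 and 1.33 in Mouse_628.

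Ankrd37, a small ankyrin-repeat protein and a direct HIF target, stood at 138 and 81.1 CPM in Mouse_627 and at 139.7 and 76.4 CPM in Mouse_628 (0.89 ± 0.20, edgeR adjusted p = 0.00292). Gbe1, the branching enzyme of glycogen synthesis, stood at 163 and 97.2 CPM and at 178 and 116 CPM (0.75 ± 0.20, edgeR adjusted p = 0.0348). In both the classes did not overlap across the sections, and the 5 genes described here rose again in the depth-matched classes, with log2 fold changes from 0.52 for Gbe1 to 0.83 for Bhlhe40. Within the 10 depth groups (5 per section), Bhlhe40, Ero1l and Ankrd37 were higher in high-score spots in 10 of 10 and Ddit4 in 7. With levels read from UMIs that had not chosen the classes, Gbe1 was at 0.39 and not called (edgeR adjusted p = 0.350), while Bhlhe40, Ero1l, Ddit4 and Ankrd37 were called.

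Other members were not called over all depths by edgeR and rose in the depth-matched classes. Among them were P4ha1, which hydroxylates collagen prolines (0.60 over all depths and 0.53 depth-matched, edgeR adjusted p = 0.344 and 4.82e-06), the mitophagy receptor Bnip3 (0.68 and 0.56, edgeR adjusted p = 0.1003 and 7.9e-06), heme oxygenase Hmox1 (0.66 and 0.50, edgeR adjusted p = 0.193 and 2.41e-05) and the nuclear receptor coactivator Pnrc1 (0.77 and 0.69, edgeR adjusted p = 0.126 and 6.5e-11). The calcium-dependent membrane protein Anxa2 did not pass the test in either, with 1738 and 1498 CPM in Mouse_627 and 1955 and 1556 CPM in Mouse_628. Not every listed gene moved this way. Igfbp3, which binds insulin-like growth factors, stood at 359 and 453 CPM in Mouse_627 and 148 and 212 CPM in Mouse_628 and fell in the depth-matched classes (-0.40 ± 0.10, edgeR adjusted p = 0.00443). Edn1, endothelin 1, which endothelial cells also make, stood at 4.31 and 8.12 CPM and at 12.9 and 25.3 CPM and passed neither test.

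**Figure D3:**
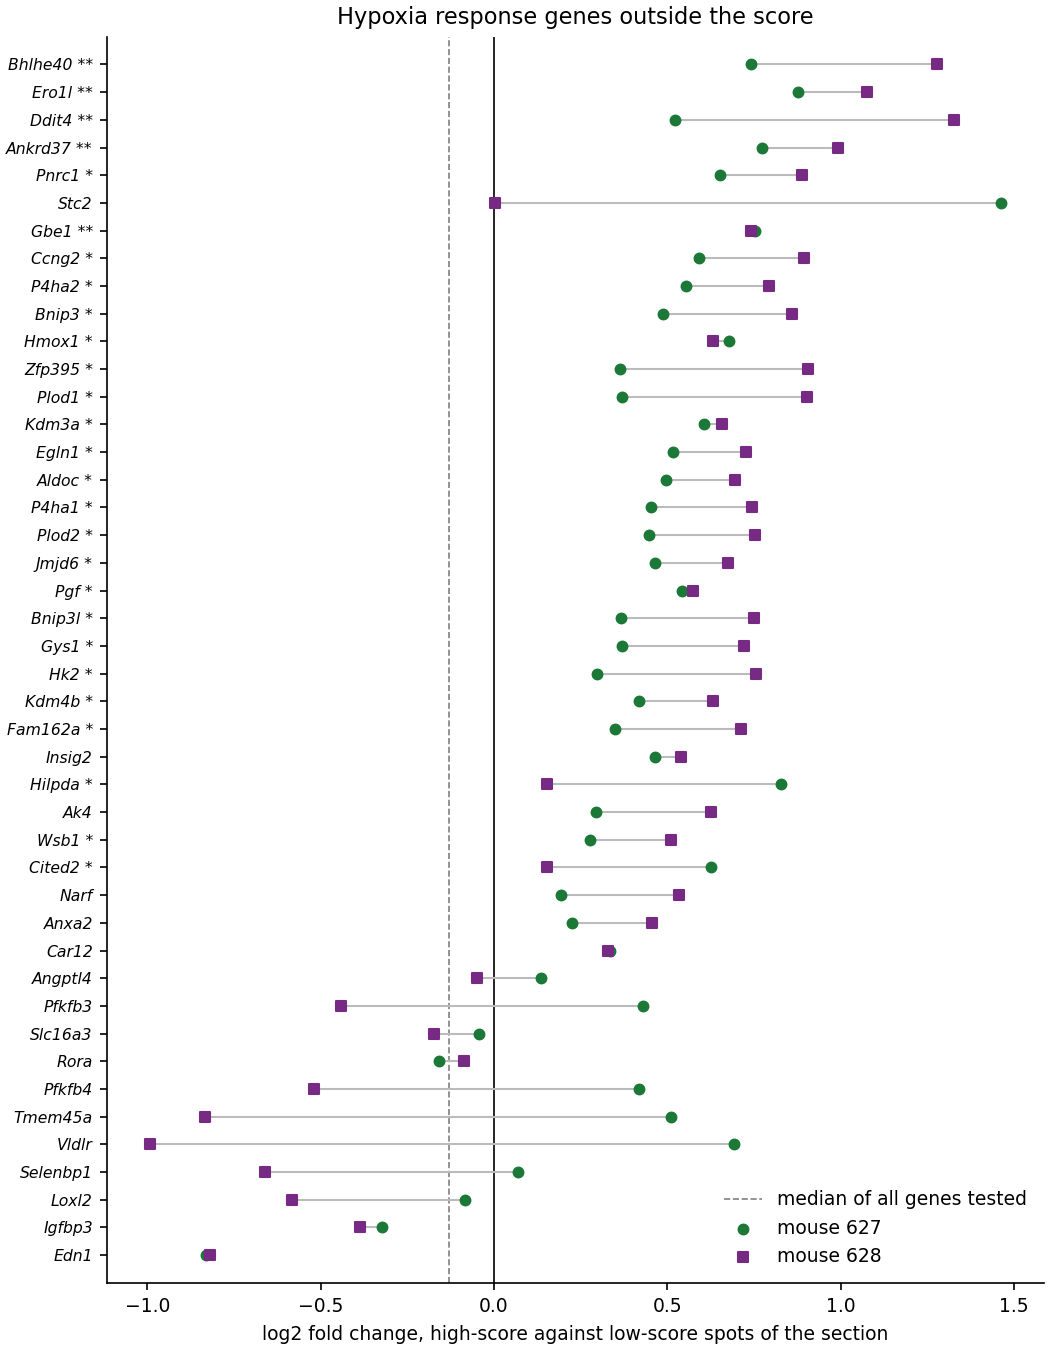
Log2 fold change of high-score against low-score spots in each section for 44 of the 45 tested hypoxia response genes outside the score, ordered by the fit over both sections. A line joins the 2 sections, 2 asterisks mark the 5 genes drawn that rose over all depths and 1 asterisk those that rose in the depth-matched classes and were not called over all depths, and the dashed line is the median of all genes tested (-0.13). Of the 44 genes, 33 lie to the right of 0 in both sections.

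The list followed the score over its whole range, not just at its ends. In 10 equal-sized groups of spots by score, the summed level of the hypoxia response genes outside the score went from 6042 CPM in the lowest to 10250 CPM in the highest group of Mouse_627 and from 5542 to 10780 CPM in Mouse_628, with each group above the one before it in both sections. The ratio of high-score to low-score spots was above 1 in all 10 depth groups, from 1.10 to 1.43. Spots outside the high-score class carried less the farther they lay from it. The summed level was 9873 CPM in high-score spots of Mouse_627, 8662 at 1 step from the nearest high-score spot, 7901 at 2 steps and 7235 at 3 or more, and 10550, 8584, 8040 and 7237 CPM in Mouse_628. These trends were not particular to this list. Epithelial-mesenchymal transition factors and mesenchymal genes rose over the score groups from 6895 to 9105 CPM in Mouse_627 and from 6902 to 9884 CPM in Mouse_628. At 3 or more steps they stood at 7897 and 7542 CPM, against 9032 and 9964 CPM in high-score spots. The replication and endothelial lists went the other way. Depth moved with these distances, from a median of 4981 UMIs in high-score spots to 9700 at 3 or more steps in Mouse_627 and from 2568 to 1597 in Mouse_628, and its part was not tested. Between the lowest and the highest score group the median went from 5279 to 4479 UMIs in Mouse_627 and from 1429 to 2606 in Mouse_628.

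Outside the score, the genes of the oxygen-sensing machinery itself did not pass the test over all depths. Of 11 tested subunits and regulators of HIF none was called by edgeR or DESeq2, with 1 higher and 1 lower at an unadjusted p under 0.05, and their median log2 fold change was 0.10. Hif1a, the oxygen-labile subunit HIF-1 alpha, stood at 331 and 339.5 CPM in high-score and low-score spots of Mouse_627 and at 348 and 307 CPM in Mouse_628, and its classes overlapped (0.14 ± 0.22). Epas1, which encodes HIF-2 alpha and is abundant in endothelium, stood at 15.8 and 21.4 CPM and at 9.49 and 26.1 CPM (-0.90 ± 0.30, edgeR adjusted p = 0.161). Egln1, the main HIF prolyl hydroxylase and itself a HIF target, was the member that rose in the depth-matched classes (0.49 ± 0.10, edgeR adjusted p = 0.000237).

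Most glycolysis genes had higher levels in high-score spots but few passed the test, and no gene of the respiratory chain was called. Of 13 tested glycolysis genes 1 rose, against 0.210% of all genes, and 6 were higher at an unadjusted p under 0.05. In both sections 11 of the 13 were higher, against 17.6% of all genes. The median was 0.43 against -0.13, and 7 rose in the depth-matched classes, where 1.24% of all genes did. The one that rose was Eno2, an enolase that hypoxia induces, at 222 and 132.5 CPM in Mouse_627 and 235 and 125 CPM in Mouse_628 (0.90 ± 0.21, edgeR adjusted p = 0.00544). Pkm, the last enzyme of the pathway, was at 3469 and 2853 CPM and at 3711 and 3055 CPM and passed neither test. Gpi1 (0.43 and 0.38), Pfkl (0.58 and 0.44), Pgk1 (0.55 and 0.43) and Hk2 (0.53 and 0.46, over all depths and depth-matched) were not called over all depths and rose in the depth-matched classes, with edgeR adjusted p of 0.00287, 0.000222, 0.000436 and 0.00414. The summed level of the list went from 6274 CPM in the lowest to 9225 CPM in the highest score group of Mouse_627 and from 5808 to 9879 CPM in Mouse_628.

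Of 30 tested respiratory chain genes and 16 of the citrate cycle none was called in either direction by edgeR or DESeq2 and none had an unadjusted p under 0.05, and none was called in the depth-matched classes. Their medians were 0.03 and 0.05. The summed level of the respiratory chain list was 6040 CPM in high-score and 6310 CPM in low-score spots of Mouse_627 and 5744 and 5727 CPM in Mouse_628, and Atp5b, the catalytic subunit of ATP synthase, stood at 588 and 579.5 CPM and at 633 and 579 CPM. These are transcripts of the nuclear genome, since the files held no mitochondrially encoded gene. Of 8 tested acid and lactate transport genes none was called over all depths, by either tool or at an unadjusted p under 0.05. Bsg, the chaperone of the lactate transporters, rose in the depth-matched classes (0.30 ± 0.09, edgeR adjusted p = 0.0476), and the transporter Slc16a1 stood at 67.5 and 56.2 CPM and at 56.6 and 52.7 CPM. Slc16a3 (MCT4), the lactate exporter that HIF induces, stood at 72.6 and 75.2 CPM and at 87.3 and 107.6 CPM, lower in the high-score class of both sections over all depths (-0.11) and not depth-matched (0.03), and passed neither test.

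The largest rise outside the score was that of Sox9, a transcription factor of stem and progenitor states in the mammary gland. Sox9 stood at 106 CPM in high-score and 65.6 CPM in low-score spots of Mouse_627 and at 267 and 93.1 CPM in Mouse_628, with a log2 fold change of 1.21 ± 0.21 (edgeR adjusted p = 1.09e-05) and 0.98 ± 0.10 depth-matched. Both high-score values were above both low-score values, and the change was wider in Mouse_628 (1.64) than in Mouse_627 (0.70). It was the 1 of 16 tested genes of a list of epithelial-mesenchymal transition factors and mesenchymal genes that rose over all depths. Vim, which encodes the intermediate filament vimentin, stood at 6894 and 5922 CPM and at 7756 and 6107 CPM and passed neither test. Fosl1, an AP-1 factor, rose depth-matched (0.39, edgeR adjusted p = 0.00765).

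Several transcription factors and signalling genes rose with it. Fosb, an immediate early gene of the AP-1 family, stood at 65.4 and 26.8 CPM in Mouse_627 and at 83.9 and 55.2 CPM in Mouse_628 (0.99 ± 0.20, edgeR adjusted p = 0.000501). Klf4, a zinc-finger factor of epithelial differentiation and growth arrest, stood at 70.4 and 47.4 CPM and at 85.8 and 47.9 CPM (0.78 ± 0.19, edgeR adjusted p = 0.0149). Arrdc3, an arrestin-domain protein that sends receptors to degradation, stood at 135 and 89.3 CPM and at 134 and 63.5 CPM (0.90 ± 0.20, edgeR adjusted p = 0.00282). Dll1, a Notch ligand, stood at 35.2 and 24.4 CPM and at 50.9 and 26.6 CPM (0.83 ± 0.20, edgeR adjusted p = 0.0134), while Nrarp, a target of and brake on Notch signalling, fell from 49.8 to 31.6 CPM and from 42.8 to 18.6 CPM (-0.86 ± 0.21, edgeR adjusted p = 0.0149). With levels read from UMIs that had not chosen the classes, Dll1 and Nrarp were at 0.29 and -0.69 and not called (edgeR adjusted p = 0.846 and 0.191). Smtnl2 (1.08), Fbxo21 (0.90), Nptx1 (0.79) and the matrix proteoglycan Bgn (0.82) rose as well. These were among the 15 largest rises of genes at 20 CPM or more in the higher class of both sections. Of these 15, 14 rose again in the depth-matched classes, and Bgn did not (0.42, edgeR adjusted p = 0.121), being near level in Mouse_627 there. In UMIs that had not chosen the classes, Smtnl2, Fbxo21 and Nptx1 were not called either (edgeR adjusted p = 0.179, 0.421 and 0.0578).

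Genes of DNA replication were lower in high-score spots. Of 23 tested members 2 fell, against 0.468% of all genes, and 10 were lower at an unadjusted p under 0.05, as were 700 of all 14742 genes. In both sections 21 of the 23 were lower, against 33.1% of all genes. DESeq2 called none. The median was -0.39, and 6 fell in the depth-matched classes, where 1.15% of all genes did. Cdc6, which loads the replicative helicase onto origins, stood at 12.9 and 27.7 CPM in high-score and low-score spots of Mouse_627 and at 12.2 and 35.0 CPM in Mouse_628 (-1.27 ± 0.26, edgeR adjusted p = 0.00109). This was the largest fall among genes called, lower in both sections and at 20 CPM or more in the low-score class of both. The classes of Cdc6 did not overlap and it fell again depth-matched (-1.14 ± 0.21). In UMIs that had not chosen the classes, Cdc6 was at -1.19 and not called (edgeR adjusted p = 0.06985). Ccne2, cyclin E2, was called over all depths (-1.08 ± 0.22, edgeR adjusted p = 0.00088). In Mouse_628 it stood at 39.5 and 124 CPM, while Mouse_627 had 19.4 and 20.8 CPM. The depth-matched classes did not call it (edgeR adjusted p = 0.0745).

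The helicase subunits Mcm3 (-0.47 over all depths, -0.49 depth-matched) and Mcm6 (-0.40 and -0.44) fell in the depth-matched classes, with edgeR adjusted p of 0.00294 and 0.00502. Outside the list, Pclaf, a partner of the replication clamp PCNA, fell from 85.5 to 50.3 CPM in Mouse_627 and from 58.1 to 25.1 CPM in Mouse_628 (-0.91 ± 0.21, edgeR adjusted p = 0.00366), and Pole, the catalytic subunit of DNA polymerase epsilon, fell as well (-0.77 ± 0.21, edgeR adjusted p = 0.0456). In UMIs that had not chosen the classes, Pclaf was at -0.67 and not called (edgeR adjusted p = 0.103). The summed level of the replication list was 926 CPM in high-score and 1236 CPM in low-score spots of Mouse_627 and 990 and 1427 CPM in Mouse_628.

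Mitotic genes had a lower median in Mouse_627 than in Mouse_628, a difference that was not tested. Of 22 tested none was called by edgeR or DESeq2, with 4 lower at an unadjusted p under 0.05, and the median was -0.46 in Mouse_627 and -0.06 in Mouse_628. Mki67, the proliferation antigen Ki-67, stood at 152 and 201 CPM in Mouse_627 and at 150.3 and 153.9 CPM in Mouse_628, and Cdk1, the mitotic kinase, at 177 and 247 CPM and at 198.5 and 200.7 CPM. Their log2 fold changes were -0.39 and -0.47 in Mouse_627 and 0.09 and 0.11 in Mouse_628. In Mouse_628 their CPM was slightly lower in high-score spots and the sign of the fold change comes from the TMM scaling, with factors of 0.9899 for the high-score and 1.109 for the low-score sum, so no direction is given there. Cenpf, a kinetochore protein, was the member that fell in the depth-matched classes (-0.60 ± 0.14, edgeR adjusted p = 0.00199), and Nsl1, also of the kinetochore but outside the list, fell over all depths (-1.10 ± 0.24, edgeR adjusted p = 0.00292). With levels read from UMIs that had not chosen the classes, Nsl1 was at -0.49 and not called (edgeR adjusted p = 0.646). Of 10 tested inhibitors of the cell cycle none was called over all depths by either tool, with 3 higher at an unadjusted p under 0.05, and 3 rose depth-matched. These were Ccng2 (0.65), Gadd45a (0.52) and Cdkn1a (0.45), which encodes p21, with edgeR adjusted p of 8.9e-09, 5.66e-05 and 0.000905. Ccng2 also stands on the hypoxia list.

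Endothelial genes were lower in high-score spots. Of 21 tested members 3 fell, against 0.468% of all genes, and 12 were lower at an unadjusted p under 0.05, as were 700 of all 14742 genes. In both sections 18 of the 21 were lower, against 33.1% of all genes. None rose, and DESeq2 called none in either direction. The median log2 fold change was -0.74 (-0.44 in Mouse_627 and -0.95 in Mouse_628) against -0.13 over all genes, and 7 fell in the depth-matched classes, where 1.15% of all genes did. Egfl7, a vessel-specific secreted protein, stood at 49.6 CPM in high-score and 79.4 CPM in low-score spots of Mouse_627 and at 32.6 and 66.5 CPM in Mouse_628 (-0.79 ± 0.20, edgeR adjusted p = 0.0228). Cldn5, the claudin of endothelial tight junctions, stood at 34.5 and 49.8 CPM and at 18.6 and 41.4 CPM (-0.77 ± 0.21, edgeR adjusted p = 0.0456). In each section both were lower in the high-score class, and Egfl7 and Cldn5 fell again depth-matched (-0.74 and -0.59). With levels read from UMIs that had not chosen the classes, they were at -0.72 and -0.34 and not called (edgeR adjusted p = 0.0687 and 0.762). Robo4, a receptor of quiescent endothelium, was called over all depths (-1.04 ± 0.28, edgeR adjusted p = 0.0422) at 12.2 and 17.6 CPM and 12.9 and 36.3 CPM, and not depth-matched (edgeR adjusted p = 0.145).

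Further endothelial genes fell in the depth-matched classes and were not called over all depths. Cdh5, VE-cadherin of endothelial junctions, stood at 64.7 and 91.2 CPM and at 34.5 and 73.2 CPM (-0.75 ± 0.13, edgeR adjusted p = 6.34e-06), and Plvap, which forms the diaphragms of fenestrated vessels, at 95.6 and 135 CPM and at 49.3 and 72.9 CPM (-0.62 ± 0.12, edgeR adjusted p = 5.68e-05). Vwf, von Willebrand factor, gave -1.20 ± 0.26 (edgeR adjusted p = 0.000762). Pecam1 (CD31) stood at 35.9 and 46.4 CPM and at 24.7 and 36.9 CPM and passed neither test. Not every endothelial gene was lower. Eng, endoglin, a TGF-beta co-receptor of endothelium that other stromal cells also make, stood at 203 and 233.7 CPM in Mouse_627 and at 157 and 141.5 CPM in Mouse_628 (0.04 over all depths and -0.09 depth-matched). Flt1, a receptor of VEGF, stood at 53.9 and 58.6 CPM and at 58.5 and 63.2 CPM (-0.04 and -0.08), and neither gene was called. Outside the list but with a place in vessels, the water channel Aqp1 fell from 86.3 to 41.7 CPM in Mouse_627 and from 51.4 to 26.2 CPM in Mouse_628 (-0.94 ± 0.21, edgeR adjusted p = 0.00282). Gpihbp1, the capillary anchor of lipoprotein lipase, fell from 62.2 to 37.4 CPM and from 40.9 to 18.6 CPM (-0.86 ± 0.21, edgeR adjusted p = 0.0126). The summed level of the endothelial list was 718 CPM in high-score spots of Mouse_627 and rose with distance from them to 821, 873 and 972 CPM at 1, 2 and 3 or more steps, and in Mouse_628 it went from 509.7 to 567, 615 and 892 CPM. The share of the receptor genes used as background also rose with distance in Mouse_628, from 0.472% to 1.36%. It fell in Mouse_627, from 0.112% to 0.0371%. Depth moved too, as given above, and the part of either was not tested. For the endothelial list as a whole, depth groups were also compared. The ratio of high-score to low-score spots was below 1 in 9 of 10 depth groups.

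Pericyte and smooth muscle genes had a median of -0.56 with none of 10 tested called over all depths by either tool, with 1 higher and 1 lower at an unadjusted p under 0.05. Of the 10, 6 were lower and 1 was higher in both sections, against 33.1% and 17.6% of all genes. That 1 was the contractile gene Tagln, at 24.4 and 16.6 CPM and at 40.2 and 22.9 CPM, and it rose depth-matched (0.86 ± 0.18, edgeR adjusted p = 0.000184). Acta2, smooth muscle actin, stood at 6.47 and 9.20 CPM and at 29.98 and 12.9 CPM and passed neither test.

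**Figure D4:**
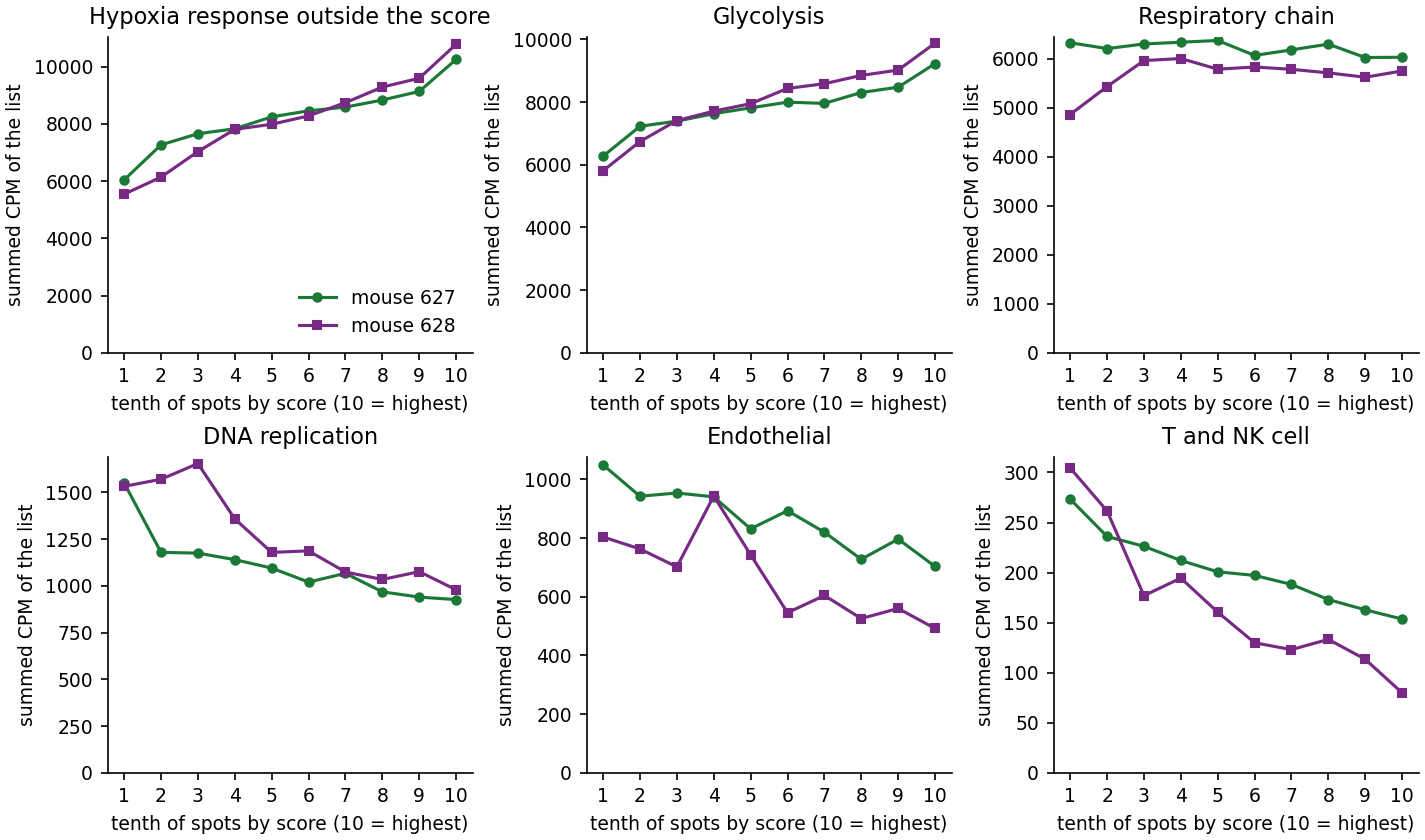
Summed CPM of 6 gene lists in 10 equal-sized groups of spots ordered by score, for each section, with every axis starting at 0. The hypoxia response list rises in each group of both sections, from 6042 to 10250 CPM in Mouse_627 and from 5542 to 10780 CPM in Mouse_628, the respiratory chain list shows no such rise in Mouse_627, and the replication, endothelial and T and NK cell lists end lower than they start.

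Of 13 tested T and NK cell genes none was called over all depths by edgeR or DESeq2, with 4 lower at an unadjusted p under 0.05, and 11 were lower in both sections, against 33.1% of all genes. Depth-matched, 8 of 15 were lower in both sections against 37.7% of all genes, and 2 fell, against 1.15% of all genes. Their summed level was 157 CPM in high-score and 231 CPM in low-score spots of Mouse_627 and 90.7 and 205 CPM in Mouse_628. Cd3g stood at 16.5 and 29.8 CPM and at 5.31 and 14.5 CPM, and Cd3d at 4.31 and 11.8 CPM and at 5.69 and 14.5 CPM. Both encode parts of the T cell receptor complex and fell depth-matched (-0.81 and -1.26, edgeR adjusted p = 0.0266 and 0.0313). The share of the receptor genes used as background moved the same way in Mouse_628 and the opposite way in Mouse_627, and its part was not tested.

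Of 7 tested genes of the granzyme cluster and perforin none was called over all depths by edgeR or DESeq2, with 5 lower at an unadjusted p under 0.05, and 4 fell depth-matched. Gzmg stood at 654 and 699.7 CPM in Mouse_627 and at 433 and 915 CPM in Mouse_628, and Gzmf at 389 and 466 CPM and at 309 and 634 CPM. Neither was called over all depths, and both fell depth-matched (-0.61 and -0.72, edgeR adjusted p = 5.71e-08 and 5.73e-11). With the 25% of highest score against the 25% of lowest score both log2 fold changes turned positive (0.21 and 0.22).

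Macrophage genes had a median of -0.40 in Mouse_627 and -0.03 in Mouse_628, a difference that was not tested. Of 18 tested 1 fell, against 0.468% of all genes, and 7 were lower and 1 higher in both sections, near the 33.1% of all genes for the lower ones. At an unadjusted p under 0.05, 1 was higher and 2 lower, and 7 fell depth-matched, against 1.15% of all genes. The one that fell over all depths was Cx3cr1, the fractalkine receptor of resident and patrolling cells, at 12.9 and 28.0 CPM and at 3.42 and 17.8 CPM (-1.57 ± 0.35, edgeR adjusted p = 0.00282, and -1.16 ± 0.25 depth-matched). These are low levels. The receptor genes used as background took 0.472% and 1.45% of UMIs in high-score and low-score spots of Mouse_628, the same direction, and 0.112% and 0.0561% in Mouse_627. The part of this background was not tested. C1qa, a complement subunit made by tissue macrophages, stood at 569 and 926 CPM in Mouse_627 and at 169 and 125 CPM in Mouse_628, opposite in direction, and fell depth-matched (-0.45 ± 0.10, edgeR adjusted p = 0.00112). C1qc, of the same complex, did likewise at 380 and 626 CPM and at 115 and 74.5 CPM (-0.39 depth-matched, edgeR adjusted p = 0.0120). Apoe, apolipoprotein E, stood at 426 and 531 CPM and at 134 and 88.2 CPM and passed neither test. In a list of 12 genes of tumour macrophage states none was called over all depths by either tool, with 4 higher at an unadjusted p under 0.05, and 4 rose depth-matched. Among the 4 was Nos2, inducible nitric oxide synthase, at 283 and 169 CPM and at 117 and 115 CPM (0.44 ± 0.10, edgeR adjusted p = 0.00196). Hmox1, which also stands on the hypoxia list, was another, as was the matrix protein Fn1, which tumour cells make as well. Spp1, osteopontin, stood at 2510 and 2980 CPM and at 4279 and 3205 CPM and passed neither test.

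Of 16 tested antigen presentation genes 1 fell and none rose over all depths, with 3 lower at an unadjusted p under 0.05 and none called by DESeq2. In both sections 7 were lower and 2 higher, near the 33.1% and 17.6% of all genes. The median was -0.02, and 3 fell and 1 rose depth-matched, against 1.15% and 1.24% of all genes. Ciita, the master regulator of class II genes, fell from 41.0 to 26.6 CPM in Mouse_627 and from 33.9 to 10.3 CPM in Mouse_628 (-1.07 ± 0.23, edgeR adjusted p = 0.00282) and was not called depth-matched (edgeR adjusted p = 0.0904). Cd74, the invariant chain, stood at 2557 and 3186 CPM and at 466 and 557 CPM, and H2-Aa at 190 and 258 CPM and at 17.8 and 31.2 CPM. Neither was called over all depths, and both fell depth-matched (-0.33 and -0.44, edgeR adjusted p = 0.0276 and 0.0153). B2m, the light chain of class I, stood at 6754 and 5651 CPM and at 6824 and 4595 CPM and rose depth-matched (0.34 ± 0.09, edgeR adjusted p = 0.0138).

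Neutrophil genes had medians of opposite sign in the sections. The median log2 fold change of 19 tested genes was 0.67 in Mouse_627 and -0.41 in Mouse_628, and 0.39 and -0.17 depth-matched. S100a9, a subunit of calprotectin, stood at 2215 and 1205 CPM in Mouse_627 and at 5488 and 8258 CPM in Mouse_628, while Lcn2, lipocalin 2, which carcinoma cells also make, stood at 1807 and 1436 CPM and at 2546 and 2528 CPM. None of the 19 was called over all depths by either tool, with 1 higher and 3 lower at an unadjusted p under 0.05, and the difference between the sections was not tested. S100a8, the other calprotectin subunit, stood at 1147 and 657.5 CPM and at 2203 and 3288 CPM. Depth-matched, 2 genes fell, Camp (-1.01) and Ngp (-0.68), which encode granule proteins of immature neutrophils (edgeR adjusted p = 0.0159 and 2.83e-05). The summed level of the list was 4154 CPM in low-score spots of Mouse_627 and 16720 CPM in those of Mouse_628. Of 19 inflammatory cytokine genes 1 fell, Il6, at 15.1 and 16.1 CPM in Mouse_627 and 7.97 and 34.4 CPM in Mouse_628 (-1.13 ± 0.31, edgeR adjusted p = 0.0400), and it was not called depth-matched (edgeR adjusted p = 0.163). There the chemokine Ccl7 fell (-0.57) and the prostaglandin synthase Ptges rose (0.32), with edgeR adjusted p of 0.00227 and 0.0334.

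Other genes among the 15 largest falls chosen in the same way were the acid-sensing receptor Gpr65, which fell from 35.3 to 16.5 CPM in Mouse_627 and from 24.2 to 11.01 CPM in Mouse_628 (-1.05 ± 0.26, edgeR adjusted p = 0.0149), the secretory GTPase Rab27a (-1.04 ± 0.22, edgeR adjusted p = 0.00234), and Cdon, a co-receptor for Hedgehog ligands, which fell from 126 to 76.9 CPM and from 73.2 to 34.2 CPM (-0.83 ± 0.20, edgeR adjusted p = 0.0137). The rest were Zfp322a (-1.05), Lifr, a receptor of the interleukin 6 family (-0.97), and Wwc1, which acts in Hippo signalling (-0.83). Of the 15, 11 fell again depth-matched. Ccne2, Ciita, Lifr and Gpihbp1 did not. In UMIs that had not chosen the classes, Gpr65, Rab27a, Aqp1 and Cdon were called by edgeR and the rest of the 15 were not.

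Genes of tissue around the tumour were present in both classes. The summed level of 19 measured skin epidermis genes was 177 CPM in high-score and 229.6 CPM in low-score spots of Mouse_627 and 69.5 and 175 CPM in Mouse_628, and skeletal muscle and adipocyte lists reached at most 331 and 264 CPM in these classes. None of 11, 6 and 7 tested genes of these lists was called by edgeR or DESeq2, with 4 skin genes lower at an unadjusted p under 0.05, while 3 skin genes fell depth-matched, among them Krt10 (-0.72 ± 0.14, edgeR adjusted p = 0.000107). With the 10% of spots richest in these genes left out before the classes were made, 59 genes were higher and 82 lower. Of 17 epithelial and carcinoma genes, none was called in either direction by edgeR or DESeq2, over all depths or depth-matched, and none had an unadjusted p under 0.05 over all depths. Their summed level was 2261 and 2383 CPM in Mouse_627 and 2455 and 2422 CPM in Mouse_628. Krt8, keratin 8, stood at 199 and 214 CPM and at 398 and 400.3 CPM. Of 21 fibroblast and collagen genes none was called over all depths by either tool, with 2 higher at an unadjusted p under 0.05, and Fn1 was the 1 that rose depth-matched (0.33, edgeR adjusted p = 0.0205). The matrix protease Mmp3 stood at 2690 and 2355 CPM and at 3595 and 2563 CPM and passed neither test.

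Further lists had few or no genes past the test. Of 21 tested genes of the integrated stress and unfolded protein response, 20 of ribosome biogenesis, 21 induced by interferon and 7 of B and plasma cells, none was called over all depths by edgeR or DESeq2. At an unadjusted p under 0.05, 1 stress gene was higher and 3 lower, 2 ribosome biogenesis genes, 2 interferon genes and 1 B cell gene were lower. Their medians were 0.03, -0.02, 0.03 and -0.46. The median of the B and plasma cell genes was 0.90 in Mouse_627 and -1.24 in Mouse_628, with no gene of the same direction in both, and that difference was not tested. Depth-matched, the stress gene Atf3 rose (0.65, edgeR adjusted p = 8.17e-08) and Psat1, of serine synthesis, fell (-0.47, edgeR adjusted p = 0.00893). The interferon-induced genes Cxcl10 (-0.64), Gbp4 (-0.37) and Ifi35 (-0.44) fell there too, with edgeR adjusted p of 0.00977, 0.0246 and 0.0475, and no ribosome biogenesis or B cell gene was called. Of 18 genes of matrix proteolysis and crosslinking, 1 rose over all depths and 1 depth-matched, and the median was 0.05.

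**Figure D5:**
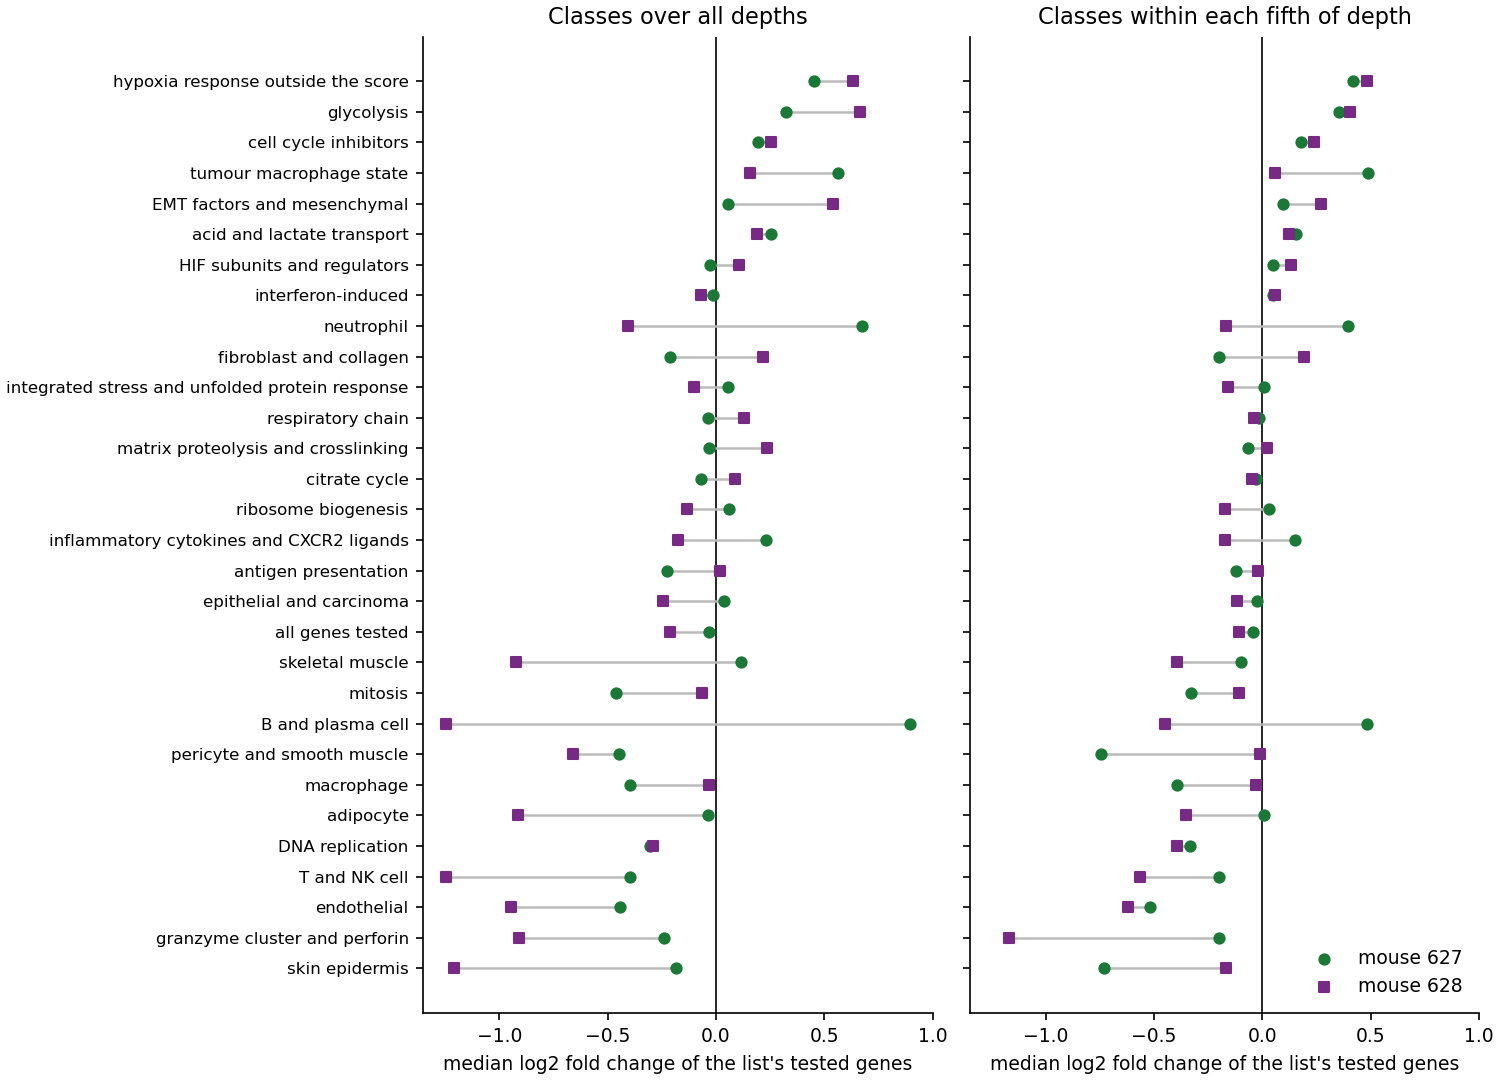
Median log2 fold change of the tested genes of each list in each section, with classes over all depths (left) and depth-matched classes (right), ordered by the depth-matched fit. Hypoxia response genes outside the score (0.45 and 0.63 over all depths) and glycolysis lie to the right of 0 in both sections, the endothelial (-0.44 and -0.95), replication and T and NK cell lists to the left, and the neutrophil list on opposite sides.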

How the data were processed

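The authors aligned the Visium FFPE libraries with Space Ranger 2.0.0 on mm10, per the labels, and deposited raw UMI counts of 19465 genes per spot, with no normalization. Spots were filtered and ranked by score within each section, and counts were summed per mouse and class. The members and gene lists were chosen with earlier results of these data known. Sums were fitted in edgeR 4.0.16 (R 4.3.3, quasi-likelihood, TMM, default filter on low counts, mouse as block, Benjamini-Hochberg at 0.05), with 1 residual degree of freedom and a prior count of 2. Both classes of a mouse come from 1 section, which gives the pairing, and the deviations of same-mouse sums correlated at 0.823. The block takes up differences in level between the mice. The p-values rest on a spread that edgeR shares in part over genes, and do not measure that of a single gene between 2 mice. Ddit4, at 0.52 and 1.33 in the sections, had an SE of 0.21, and Ankrd37, at 0.77 and 0.99, one of 0.20. UMI totals per class limit the precision of a CPM. Alternatives were DESeq2 1.42.0, the fit without the block, no filter, other class limits, depth minimums and scores, classes from drawn UMIs and depth-matched classes. Scripts ran in Python 3.11.15 and were tested on simulated data. The 22 gene identifiers that share a symbol were left out of lists.

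Genes were named by this rule: the score genes, the 15 largest rises and 15 largest falls, and in each list up to 4 of highest CPM and up to 4 called. Of these the text names a selection made with the values known. The 15 rises and 15 falls were taken outside the score, among genes called in the fit of both sections together. They moved the same way in both sections and had 20 CPM or more in the higher class of both. Genes outside the rule were named after their values were seen. Some genes that were tested and counted are not reported here by name.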

Additional observations from a re-analysis of the deposited data

How the results depend on the processing

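The count of 31 genes higher and 69 lower depended on the setting. Without the replicate block it was 0 and 0, by DESeq2 15 and 0, without a filter on low counts 5 and 10, with classes from a randomly drawn 50% of UMIs and sums from the rest 66 and 37, depth-matched 211 and 196, with the top 25% against the bottom 25% 6 and 29, and without Slc2a1 in the score 3 and 8. With 2000 UMIs or more per spot it was 174 and 66, and without skin, muscle and fat spots 59 and 82. All 31 genes higher kept their direction in each of these settings. Among them are the score genes, whose own UMIs made the classes in most settings, so their direction there is a description. The 24 others, which did not enter the score, all kept theirs, but they were picked in these same sections, so this is a description too. Of the 69 lower, 66 kept their direction in DESeq2. The share of high-score neighbours of 34.2% in Mouse_627 was 28.4% among spots 2 steps away and 37.9% with 2000 UMIs or more, and that of 29.4% in Mouse_628 was 33.2% with 2000 UMIs or more. The median of the HIF subunits ranged from -0.026 to 0.105 with 1 mouse left out, and that of the granzyme cluster was 0.15 for top against bottom 25%. Hif1a was -0.00096 with the drawn UMIs, Pecam1 0.14, Gzmf 0.22 and Gzmg 0.21 for top against bottom 25%, C1qa 0.012 in DESeq2 and 0.047 without Slc2a1, and S100a9 -0.18 without the block. Eng was -0.017 without the block, -0.089 depth-matched and -0.032 with 2000 UMIs or more. Flt1 was 0.081 with the drawn UMIs, 0.13 for top against bottom 25% and 0.055 without Slc2a1, and Slc16a3 0.030 depth-matched and 0.14 for top against bottom 25%. Krt8 was -0.028 with the drawn UMIs, -0.015 depth-matched and -0.062 with 2000 UMIs or more. Apoe was -0.14 without the block and -0.13 depth-matched, and Spp1 -0.028 depth-matched and -0.026 with 2000 UMIs or more. C1qc was 0.099 in DESeq2, 0.0005625 without a filter and 0.101 without Slc2a1, S100a8 -0.12 without the block and Ifi35 0.0098 without Slc2a1. These signs are opposite to those over all depths. The cause was not tested. With 1 mouse left no test was possible, and only its fold changes were computed. Low depth in Mouse_628 limits genes near the receptor background.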

Other observations

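Genes named here were picked after their values were seen. The metallothioneins Mt1 and Mt2, which bind zinc and copper, stood at 2227 and 2024 CPM in high-score and 1569 and 1565 CPM in low-score spots of Mouse_627, and at 4687 and 4019 CPM against 1986 and 1598 CPM in Mouse_628. Neither was called over all depths by edgeR, and both rose depth-matched (0.79 and 0.67). Jun, the partner of Fosb in AP-1, stood at 351 and 233 CPM and at 614 and 344 CPM, and the immediate early gene Ier3 at 782 and 538 CPM and at 969 and 553 CPM. Both rose depth-matched (0.65 and 0.58). DESeq2 called Mt1, Jun, Ier3 and Pnrc1 higher over all depths.

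The remaining genes that rose over all depths were Bhlhe41 (0.74), a relative of Bhlhe40, the chemokine scavenger Ackr3 (0.75), Tiparp (0.75), a target of the aryl hydrocarbon receptor, Klf5 (0.74), Wee1 (0.76), the kinase that holds back mitotic entry, Irf2bpl (0.73), Ier5l (0.71) and Plet1 (0.95). All but Plet1 rose again depth-matched.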
